A study of Drosophila melanogaster with 2 samples.

Results

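The vacuolar ATPase genes of Drosophila melanogaster were examined in a chromatin map of espinas (esn) made through a GFP tag. They were taken as the protein-coding genes whose Ensembl BDGP6 symbol starts with Vha followed by a digit or a capital letter, which gave 33 of the 13945 protein-coding genes on the main chromosome arms. From background knowledge of the fly genes, 15 of them, mostly 1 gene for each subunit, are broadly expressed and are called the broad set below. The other 18 are the remaining paralogs, many of them known for expression in single tissues.

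The series holds chromatin immunoprecipitation sequencing (ChIP-seq) of 2 biological replicates of a single group, so there was no comparison between groups. The animals were whole white prepupae, the stage at which metamorphosis begins, with males and females pooled. They came from a transgenic line stably expressing esn with GFP at its C-terminus, and the precipitating antibody recognised GFP. There was no untagged group, the control libraries were not analysed here, and whole animals do not separate cell types, so recovery through espinas and recovery unrelated to it cannot be told apart.

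The vacuolar ATPase is a rotary proton pump. Its cytoplasmic V1 sector hydrolyses ATP and turns a stalk, which drives a ring of proteolipids in the membrane-embedded V0 sector and moves protons across the membrane. It acidifies endosomes and lysosomes in every cell, energises fluid-secreting epithelia such as the Malpighian tubules of the fly, and serves as a platform on which the Rag GTPases and the Ragulator complex recruit TOR kinase to the lysosome. In flies, the transcription factor Mitf is known to control vacuolar ATPase genes. Espinas carries LIM domains and is a relative of the planar polarity protein Prickle.

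Most broad-set genes had an enriched region at their promoter, and most other paralogs, like most protein-coding genes, had none. A promoter summit here is the deposited point of highest signal of a region, at most 500 bases from a protein-coding transcript's start, in the list that the authors thresholded by irreproducible discovery rate (IDR) over both replicates. Such a summit was present at 18 of the 33 vacuolar ATPase genes, or 54.5% (95% Wilson interval 38.0 to 70.2%), against 35.4% of all protein-coding genes (34.6 to 36.2%, 4936 genes). It was present at 13 of the 15 broad-set genes, or 86.7% (62.1 to 96.3%), and at 5 of the 18 other paralogs, or 27.8% (12.5 to 50.9%). The interval of the other paralogs includes the 35.4% of all protein-coding genes. By sector, 8 of the 13 V1 genes, 9 of the 18 V0 genes and 1 of the 2 genes for the accessory subunit Ac45 had one. These intervals cover counting error only, genes are not replicates, and no test was made of these shares. No share was computed over other broadly expressed genes, so whether 86.7% is particular to pump genes was not tested. The sets also differed in setting. No other coding start lay within 1000 bases for 33.3% of the broad set and 72.2% of the other paralogs, against 57.1% of all protein-coding genes.

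**Figure D1:**
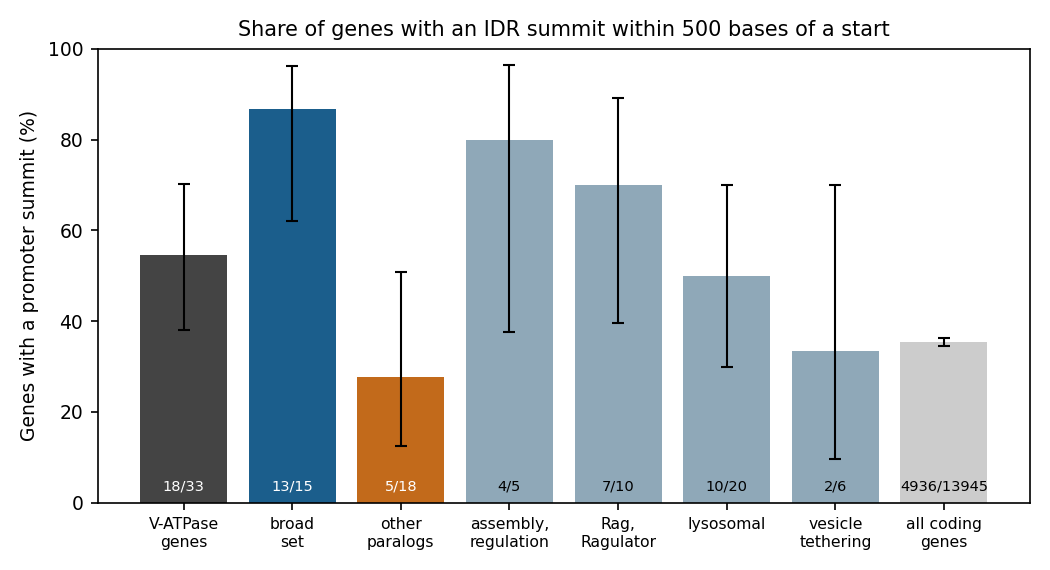
Percentage of genes with a summit of the IDR list within 500 bases of a transcript start, for the vacuolar ATPase genes, their broad set and other paralogs, 4 lists of related genes and all protein-coding genes; error bars are 95% Wilson intervals and the counts stand in the bars. The broad set stood at 86.7% and the other paralogs at 27.8%, with all coding genes at 35.4%.

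The strength of the regions was not unusual for the list. Each region carries the authors' signal value, an enrichment measure with no stated unit whose scale differs between lists, so a value is given with its rank within its own list, rank 1 being the strongest. The strongest promoter region of the 18 genes had a median signal of 340, against 375 over all 4936 genes with a promoter summit. The median was 388 in the broad set and 317 in the other paralogs. Of the 18 regions, 9 lay above and 9 below the median of all 10918 IDR regions on the arms, which was 328, and the lowest IDR signal was 164.

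Subunit A, the catalytic subunit where ATP is hydrolysed, is encoded by 3 genes on arm 2L. Vha68-1 (FBgn0265262, 13000770 to 13004107, minus strand) had a region at 13004068 to 13004413 with an IDR signal of 631 at rank 2396. Its replicate signals were 409 in replicate 1 (rank 2322) and 242 in replicate 2 (rank 2365), so its place in the order was nearly the same in both. The summit lay 122 bases upstream of the Vha68-1 start and 251 bases from the start of the divergent gene mTor, which encodes the TOR kinase that the lysosomal pump complex helps to recruit. Vha68-2 (FBgn0263598, 12974322 to 12978607, plus strand, 5 starts) had a region at 12974033 to 12974341 with signal 493 at rank 3373, from 353 in replicate 1 (rank 2843) and 141 in replicate 2 (rank 4809). Its summit lay 141 bases upstream with no other coding start nearby. The third paralog, Vha68-3, begins close to the end of Vha68-2 but had no promoter summit, and its nearest IDR summit was 3479 bases away. The 101 bases around both summits are given on the strand of the Vha68 gene, because they are the stretches the authors' summits mark between the genes; the central 11 bases are in capitals.
Vha68-1, chr2L:13004179-13004279, minus strand: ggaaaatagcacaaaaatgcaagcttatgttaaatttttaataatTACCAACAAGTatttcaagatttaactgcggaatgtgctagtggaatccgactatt
Vha68-2, chr2L:12974131-12974231, plus strand: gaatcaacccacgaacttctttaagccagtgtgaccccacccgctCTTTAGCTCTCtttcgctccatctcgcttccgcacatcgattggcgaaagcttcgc

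The single-copy subunits B, C, E, G and H of V1 all had a promoter summit. B, E, G and H lay below the median signal of the IDR list, and C (Vha44, given further below) lay above it. Vha55 (FBgn0005671, 3R, 12623762 to 12627829, minus strand), the B subunit that forms the catalytic hexamer with A, had signal 176 at rank 10301, near the bottom of the list. Its region ranked 8776 in replicate 1 (signal 132) and 15495 in replicate 2 (signal 44.1), and its summit lay 39 bases upstream and 163 bases from Snx3, a sorting nexin gene. Vha26 (FBgn0283535, 3R, 5591763 to 5595356, plus strand), the E subunit of the peripheral stalk, had signal 187 at rank 9745. It ranked 7046 in replicate 1 (signal 164) and 19505 in replicate 2 (signal 32.5), and its summit, 235 bases upstream, was 69 bases from the start of noi. Both regions were thus far lower in the order of replicate 2 than of replicate 1. Vha13 (FBgn0283536, 3R, 19643018 to 19644386, minus strand), the G subunit that pairs with E, had signal 213 at rank 8578, with ranks 8482 in replicate 1 (signal 137) and 8652 in replicate 2 (signal 83.9). VhaSFD (FBgn0027779, 2L, 16722883 to 16727826, minus strand), the H subunit needed for ATP-driven pumping, had signal 245 at rank 7465, with ranks 8598 in replicate 1 (signal 135) and 6175 in replicate 2 (signal 114). The Vha13 and VhaSFD summits fell in their own 5′ untranslated regions, 33 and 72 bases downstream of the start, and neither was near another coding start.

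The remaining V1 genes with a summit, on arm 2R, were both above the list median. Vha36-1 (FBgn0022097, 15541435 to 15542498, plus strand), the D subunit of the rotating stalk, had the strongest V1 region, with signal 777 at rank 1771. Its signal was 526 in replicate 1 (rank 1577) and 251 in replicate 2 (rank 2241). The summit lay 52 bases upstream of Vha36-1 and 20 bases from CG8187, whose start is 72 bases from that of Vha36-1. Vha44 (FBgn0287825, 16324813 to 16336637, minus strand), the C subunit through which V1 and V0 come apart and rejoin, had signal 388 at rank 4512, with 308 in replicate 1 (rank 3440) and 79.1 in replicate 2 (rank 9166). Its summit lay 57 bases from Vha44 and 66 bases from the nearest start of Hmgs, which encodes HMG-CoA synthase of the mevalonate pathway. That summit also lay in an annotated 5′ untranslated region of Hmgs, inside the span of that gene. Among the paralogs, Vha36-2 and Vha36-3 had no promoter summit, their nearest IDR summits being 2142 and 1773 bases away.

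Vha14-1, which encodes the F subunit that completes the rotating stalk, was the only V1 gene of the broad set without an IDR promoter summit. The nearest IDR summit lay 905 bases downstream of its start, at the promoter of Gmppa, with signal 1490 at rank 565. The authors' list from both replicates pooled, which holds 30000 regions before thresholding, did have a summit 183 bases upstream of Vha14-1, with signal 100 at rank 16328. Each replicate list had one at nearly the same place, 184 bases upstream with signal 37.5 in replicate 1 (rank 25344) and 187 bases upstream with signal 62.3 in replicate 2 (rank 11534). Its paralog Vha14-2 had no promoter summit in either the IDR or the pooled list.

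In V0, the largest signal of all vacuolar ATPase genes was at Vha100-2 (FBgn0028670, 3R, 18390323 to 18399169, minus strand), an a subunit, which forms the proton channels beside the ring. Its strongest region, at 18396966 to 18397572, had signal 2388 at rank 185 of the IDR list. It was also high in both replicates, with signal 1591 in replicate 1 (rank 177) and 788 in replicate 2 (rank 266). The summit is not at the outermost start of the gene: it lies 322 bases upstream of an internal start at 18396928, in an annotated 5′ untranslated region inside both Vha100-2 and Vti1b. Vti1b, which encodes a SNARE protein of endosomal membrane fusion, runs on the opposite strand from a start 255 bases from the summit. A weaker region at the outermost Vha100-2 start had signal 191 at rank 9532, with 121 in replicate 1 (rank 9563) and 78.8 in replicate 2 (rank 9200), and lay 264 bases from another Vti1b start. Of the other a-subunit genes, Vha100-1 (FBgn0028671, 3R, 29131193 to 29137980, plus strand), known for its role at neuronal synapses, had promoter summits 193 bases upstream and 8 bases downstream of its start. Their signals were 209 at rank 8727 and 173 at rank 10459. The stronger had signal 109 in replicate 1 (rank 10535) and 100.01 in replicate 2 (rank 7191), and the weaker 67.1 in replicate 1 (rank 15919) and 72.5 in replicate 2 (rank 9967). The stronger lay 28 bases from dgt6, a gene of the augmin complex that works in the mitotic spindle. Vha100-3, Vha100-4 and Vha100-5 had no promoter summit, and Vha100-4, the neighbour of Vha100-2, was 7445 bases from the nearest, which is the strong Vha100-2 summit.

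Subunit c, the proteolipid of the rotor ring, is encoded by 5 genes, of which 2 had a promoter summit. Vha16-1 (FBgn0262736, 2R, 6625242 to 6633090, minus strand), the broadly used gene, had 2 promoter summits. The stronger had signal 389 at rank 4503 and lay 154 bases upstream, with signal 295 in replicate 1 (rank 3607) and 97.5 in replicate 2 (rank 7399). The weaker, with signal 209 at rank 8728, lay 12 bases upstream of the second start, with signal 134 in replicate 1 (rank 8633) and 91.5 in replicate 2 (rank 7901). No other coding start was near either of them. Vha16-5 (FBgn0032294, 2L, 10736319 to 10737043, minus strand), a paralog, had the higher signal of the pair, 738 at rank 1929, with 484 in replicate 1 (rank 1813) and 254 in replicate 2 (rank 2200). Its summit, however, lay 283 bases upstream of Vha16-5 and 19 bases from the start of CG12299. Vha16-2, Vha16-3 and Vha16-4 had no promoter summit, with the nearest IDR summits 7827, 6160 and 57069 bases away.

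The ring subunit c″ and the central subunit d were near the threshold of the IDR list. VhaPPA1-1 (FBgn0028662, 3R, 14902330 to 14904061, minus strand), the c″ gene of the broad set, had signal 181 at rank 10068, 50 bases upstream of its start. The replicate 1 list held no region there, and replicate 2 had signal 57.8 at rank 12368, so the IDR entry was not matched in both replicate lists. Subunit d, which links the ring to the stalk, gave the values just inside and just outside the list. VhaAC39-2 (FBgn0039058), the paralog, was just inside, with signal 167 at rank 10787, from 83.1 in replicate 1 (rank 13346) and 75.3 in replicate 2 (rank 9642). VhaAC39-1 (FBgn0285910), the broad-set gene, was just outside: its pooled-list summit 28 bases downstream of the start had signal 158 at rank 11343. In replicate 1 it had signal 113 at rank 10159, and in replicate 2 the nearest summit was 2895 bases away. The order of the 2 d genes thus differed little in signal, although they fell on opposite sides of the threshold.

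Subunit e, a small membrane protein of V0, was the subunit with most paralogs at summits, 3 of 4. VhaM9.7-b (FBgn0028663, 3L, 21539862 to 21541215, plus strand), of the broad set, had overlapping regions with signals 459 at rank 3672 and 276 at rank 6569. The stronger had signal 291 in replicate 1 (rank 3657) and 169 in replicate 2 (rank 3827). At 369 bases upstream it was the farthest from its own start of all strongest regions here, and 46 bases from COX8, a cytochrome c oxidase subunit gene. The weaker had signal 131 in replicate 1 (rank 8813) and 140 in replicate 2 (rank 4817), and its summit, 135 bases upstream, was nearer VhaM9.7-b than COX8. VhaM9.7-c (FBgn0028664) had signal 363 at rank 4865, 40 bases upstream and inside introns of CG18675 and Teh2. It had signal 281 in replicate 1 (rank 3841) and no region in the replicate 2 list. VhaM9.7-a (FBgn0035521) had signal 317 at rank 5668, with 191 in replicate 1 (rank 5978) and 121 in replicate 2 (rank 5777), 136 bases upstream and 99 bases from CG11586. VhaM9.7-d had no promoter summit.

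VhaAC45 (FBgn0262515, 2R, 9207561 to 9209774, plus strand), the accessory glycoprotein of V0 that takes part in assembly and sorting of the pump, had signal 262 at rank 6991. Its values were 155 in replicate 1 (rank 7439) and 98.9 in replicate 2 (rank 7280). The summit lay 90 bases upstream and 347 bases from Gnptab. That gene is named after the mammalian enzyme that begins the tagging of lysosomal enzymes with mannose phosphate. Its paralog VhaAC45RP had no promoter summit.

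**Figure D2:**
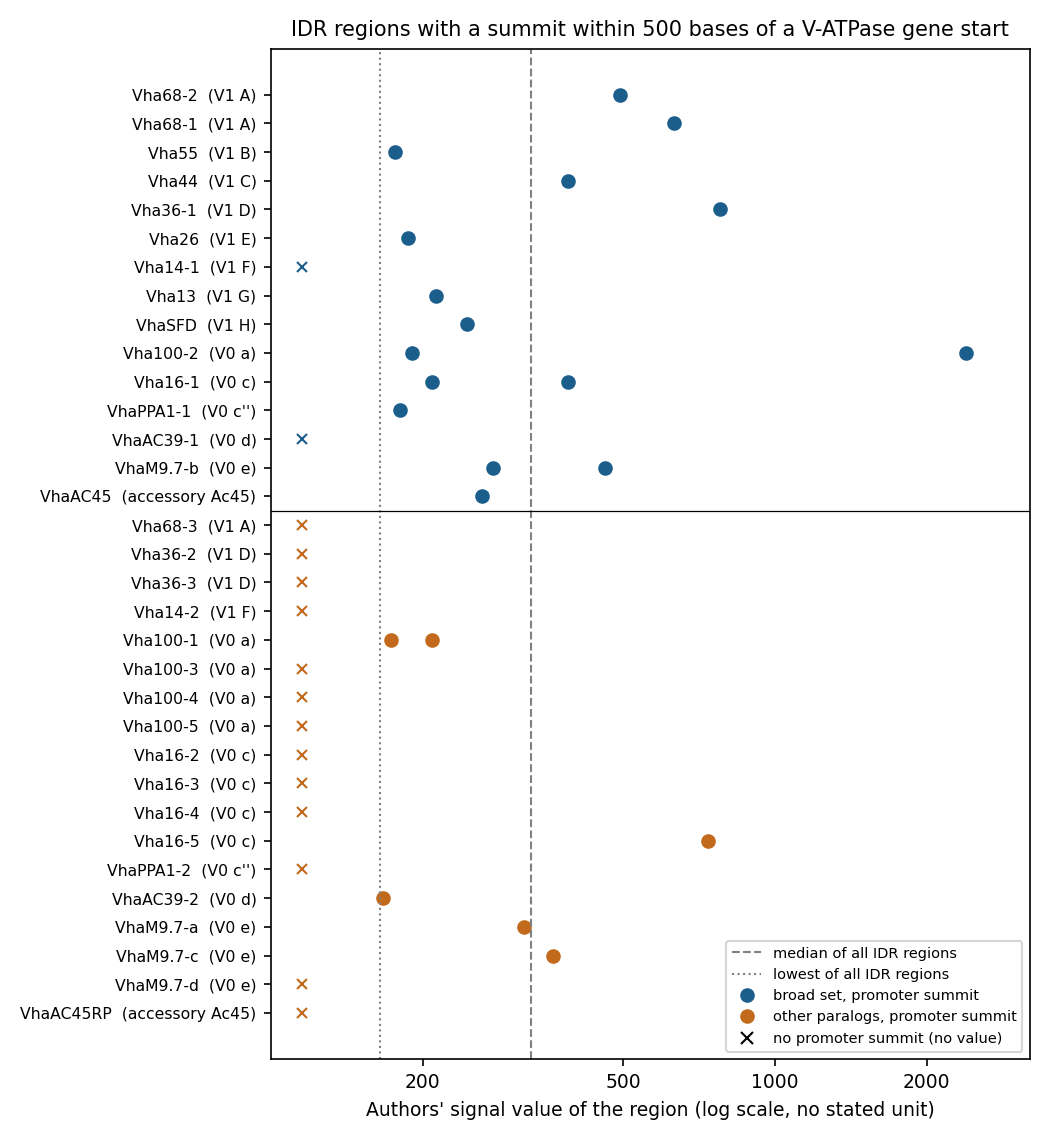
Authors' IDR signal value (log scale, no stated unit) of each region with a summit within 500 bases of a start, by gene, with the 15 broad-set genes above and the 18 other paralogs below; crosses mark genes with no such summit, the dashed line the list's median of 328 and the dotted line its lowest value of 164. Vha100-2 stands apart at 2388, and 13 of the 18 other paralogs have no value.

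Going below the IDR threshold added summits at 2 genes, both in the broad set. Of the 15 genes without an IDR promoter summit, only Vha14-1 and VhaAC39-1 had one in the whole pooled list. There the count was 20 of 33, made up of all 15 broad-set genes and the same 5 of 18 other paralogs, against 52.0% of all protein-coding genes. For the 13 genes with none in the pooled list, the nearest IDR summit lay between 1623 bases (VhaPPA1-2) and 57069 bases (Vha16-4) from a start. The depth of the libraries is unknown, so a weaker region may have escaped detection at any of these genes.

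The summits mostly lay just upstream of the gene. Of the 18 strongest regions, 16 had the summit upstream of the nearest own start, or 88.9%, against 82.6% of all genes with a promoter summit. The median distance to the start was 129 bases, against 127 over all such genes, and 8 of the 18 lay within 100 bases. Away from the promoters, IDR summits also fell inside Vha16-1 (2 summits), Vha13 (1) and Vha100-2 (1). Of the 18 regions, 11 (61.1%) were also within 500 bases of the start of another protein-coding gene, against 53.0% of all genes with a promoter summit. In all 11 cases the neighbour was on the opposite strand, with its start upstream of the nearest start of the vacuolar ATPase gene, so that the pair of starts diverged. At Vha100-2 that start is internal, and Vti1b is transcribed through the upstream part of the gene. At Vha44 the summit lies inside Hmgs, so the Hmgs start counted there is internal to Hmgs. The summit was nearer the neighbour in 7 cases (Vha36-1, Vha26, Vha100-2, VhaM9.7-b, Vha100-1, Vha16-5 and VhaM9.7-a) and nearer the vacuolar ATPase gene in 4 (Vha68-1, Vha55, Vha44 and VhaAC45). At such shared promoters the data do not assign the region to either gene. How often the pair diverged, or the neighbour was nearer, was not counted over all genes with a shared promoter summit. Among genes with no other coding start within 1000 bases, 6 of 18 vacuolar ATPase genes had a promoter summit, or 33.3%, against 22.4% of all such genes. Of these, 4 of 5 were in the broad set (Vha68-2, VhaSFD, Vha16-1 and VhaPPA1-1, but not VhaAC39-1) and 2 of 13 were other paralogs (VhaAC39-2 and VhaM9.7-c).

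**Figure D3:**
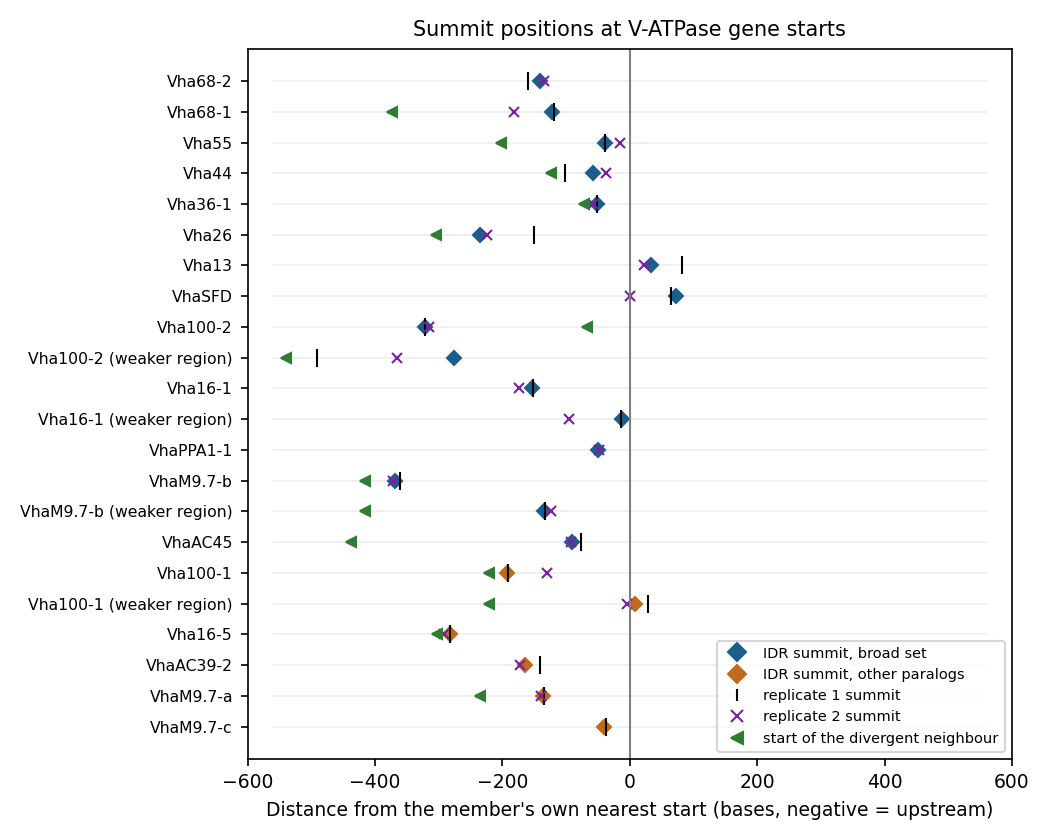
Distance in bases from each gene's own nearest start (negative is upstream) to the summit in the IDR list and in each replicate list, with the start of the divergent neighbour where it is within 500 bases of the IDR summit. Of the 18 strongest summits, 16 lie left of the start, and those of Vha36-1 and Vha16-5 sit beside the neighbour's start.

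Of the 18 strongest regions, 16 had a counterpart in both replicate lists, the exceptions being VhaPPA1-1 and VhaM9.7-c. In these 16, the replicate summits were a median of 24 bases apart, at most 73, and within 30 bases in 9. The IDR list was thresholded over both replicates, so such counterparts are not separate evidence that the regions recur. It did not require a region in each replicate list, as the exceptions show. Where the same summit was nearest in the IDR and pooled lists, its rank was the same in both, as for VhaAC39-2 at 10787. The same values over all IDR regions were not computed. The region stood nearer the top of the list in replicate 1 for 11 of the 16 and in replicate 2 for 5. Each replicate list was then reduced to as many of its strongest regions as the IDR list holds on the arms, 10918. Replicate 1 had a promoter summit at 17 of 33 genes, against 35.1% of all protein-coding genes, and replicate 2 at 14 of 33, against 34.9%. By set these were 13 of 15 broad-set genes and 4 of 18 other paralogs in replicate 1, and 10 of 15 and 4 of 18 in replicate 2. In both replicates together, 13 of 33 genes had one, 10 of the broad set and 3 of the other paralogs, against 30.7% of all protein-coding genes. The order of the broad set above the other paralogs was therefore present in each replicate, while the share of all vacuolar ATPase genes was closer to the background there than in the IDR list.

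**Figure D4:**
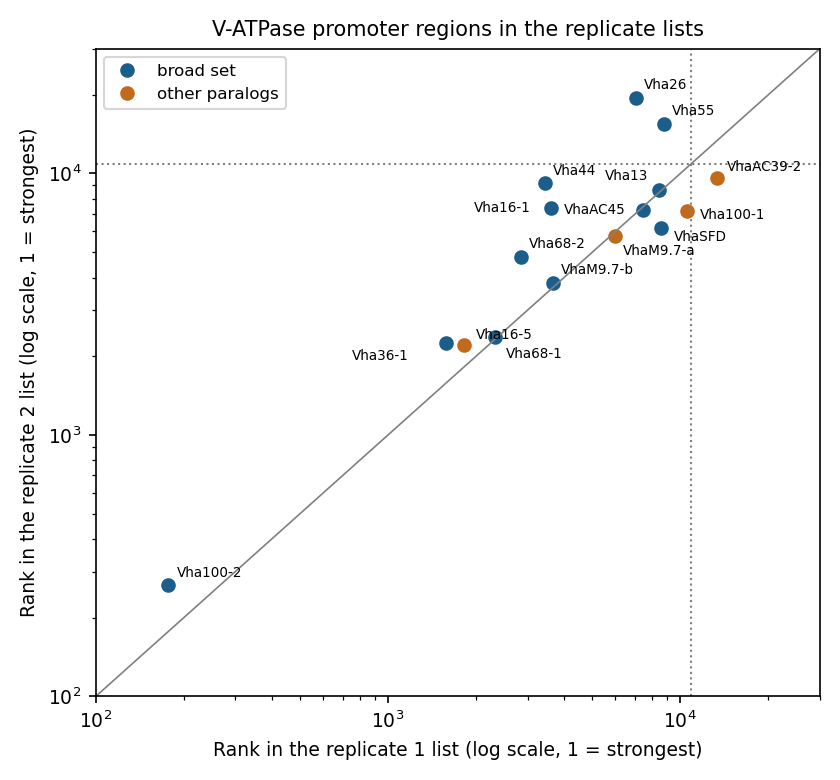
Rank of the strongest promoter region in the replicate 1 and replicate 2 lists (both log scales, 1 is the strongest) for the 16 genes with a region in both; the solid line marks equal rank and the dotted lines rank 10918. Vha100-2 ranks 177 in replicate 1 and 266 in replicate 2, and Vha26 and Vha44 lie farthest above the line of equal rank.

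Genes that work with the pump were examined in 4 lists, which together had a promoter summit at 23 of 41 genes, or 56.1% (41.0 to 70.1%), against the 35.4% of all protein-coding genes. Their median signal was 309. Of the genes for assembly and regulation, 4 of 5 had one. ATP6AP2, an accessory pump subunit also known from planar polarity in flies, had signal 394 (225 in replicate 1 and 178 in replicate 2). Rbcn-3A, of the rabconnectin complex that assembles V1 with V0, had signal 288, and its partner Rbcn-3B had signal 198. Mitf had signal 193, 383 bases downstream of a start, and rogdi had none. Of the Rag GTPase and Ragulator list, which also held mio, Nprl2 and Nprl3 of other complexes, 7 of 10 had one. The strongest was Lamtor3, a Ragulator subunit gene, with signal 2692 at rank 136 (1561 in replicate 1 and 1145 in replicate 2), at a start shared with fws. Lamtor5 had signal 421 and RagA-B signal 385, whereas Lamtor1, Nprl2 and Nprl3 had none. The lysosomal list had 10 of 20, led by the hexosaminidase genes Hexo2, with signal 2569 at rank 150 (1675 in replicate 1 and 904 in replicate 2), and Hexo1, with signal 615. Ppt1, which encodes a palmitoyl-protein thioesterase, followed with signal 611. Of 6 genes for vesicle tethering at the lysosome, 2 had one, car with signal 409 and Vps39 with signal 236.

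The promoter sequences were searched, on both strands, for 6 short words from 250 bases before to 50 bases after the outermost start. The word TCATGTGA, known as the M-box of the MITF family, was found at 4 of the 33 genes (12.1%), against 0.523% of all protein-coding promoters (73 genes). All 4 were broad-set genes: VhaAC45, Vha14-1, VhaM9.7-b and VhaPPA1-1. Counted from the start as base 0, the word began between 11 bases before and 34 bases after it. Within 500 bases of the start on either side it was present at 9 of the 15 broad-set genes and at none of the 18 other paralogs, against 1.89% of all genes. The other 5 were Vha55, Vha16-1, Vha13, Vha26 and VhaAC39-1, at 45 to 429 bases after the start. Among all genes with a promoter summit its share within 500 bases of the start was 1.88%, close to that of all genes, and Vha14-1 and VhaAC39-1 hold it without an IDR summit. Of the 18 strongest regions, 3 (16.7%) had it within 100 bases of the summit, those of VhaAC45, Vha55 and VhaPPA1-1, against 0.588% of all genes with a promoter summit. The word is shown in capitals with 11 bases on either side, on the strand of the gene, for 6 genes; TCACATGA is its reverse complement.
VhaM9.7-b, chr3L:21539873-21539902, plus strand: ggacatgtccgTCATGTGAtattcgttgct
VhaPPA1-1, chr3R:14904009-14904038, minus strand: gaaaatgtacgTCATGTGAttgtggattct
Vha55, chr3R:12627766-12627795, minus strand: cgcgtgacgggTCATGTGAcggcacgtgac
Vha26, chr3R:5592166-5592195, plus strand: gatctcccaggTCATGTGAacttttcaccg
Vha13, chr3R:19644069-19644098, minus strand: ttgtgtgtgggTCACATGAtgtggtggaaa
VhaAC39-1, chrX:3881166-3881195, plus strand: acgcccctgggTCACATGAccagcgataac

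Of the other words, TATCGATA, GGTCACAC and TATAAA were nearer the background, while CACGTG and TCACGTGA lay above it at few promoters. CACGTG, the E-box, was found at 3 of 33 promoters (9.09%), against 4.20% of all genes; at Vha44 it is part of TCACGTGA, the longer word counted separately, which was found at 1 of 33 (3.03%) against 0.172%, and its centre lay 12 bases from the summit. In the Vha55 stretch above, a CACGTG follows TCATGTGA in lower case. TATCGATA, the DRE bound by the factor DREF, was found at 2 of 33 (6.06%), against 9.36% of all genes and 15.6% of genes with a promoter summit, at Vha55 and VhaSFD. GGTCACAC, known in flies as core promoter Motif 1, was found at 4 of 33 (12.1%), at Vha68-2, Vha14-1, Vha26 and Vha100-1. Its share over all genes was 7.70%, and over genes with a promoter summit 12.1%. TATAAA was found at 17 of 33 (51.5%), against 45.8% of all genes and 45.6% of genes with a promoter summit. Within 100 bases of the strongest summit GGTCACAC was at 5.56%, or 1 of 18 genes, against 6.16% of all genes with a promoter summit. In that window TATAAA was at 22.2% against 35.8%. CACGTG was there at 2 of 18 genes (11.1%) against 2.39%, and TCACGTGA at 1 of 18 (5.56%) against 0.142%. At Vha26 and Vha100-1 GGTCACAC spans the start, beginning 2 bases before it, and at Vha68-2 its reverse complement GTGTGACC lies 18 bases from the summit. These 3 stretches and the DRE of VhaSFD are shown on the strand of the gene, with the word in capitals and 11 bases on either side.
Vha26, chr3R:5591750-5591779, plus strand: cgcaatcgcagGGTCACACtttcgtgaaat
Vha100-1, chr3R:29131180-29131209, plus strand: tgacctgccacGGTCACACtagattcatag
Vha68-2, chr2L:12974148-12974177, plus strand: tctttaagccaGTGTGACCccacccgctct
VhaSFD, chr2L:16727831-16727860, minus strand: tctgctcgtcaTATCGATAttcttatatat

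The share of G and C within 100 bases of the strongest summit averaged 39.5% ± 8.15 (SD, n = 18 genes) at the vacuolar ATPase genes, against 36.6% ± 7.78 (n = 4936) at all genes with a promoter summit. It averaged 41.2% ± 8.14 in the broad set (n = 13) and 34.9% ± 6.92 in the other paralogs (n = 5), and these ranges overlapped. The part of base composition in the counts above was not tested.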

How the data were processed

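Per the deposited file descriptions, the authors called enriched regions for each replicate and for both pooled against a control, and thresholded them by IDR. The sources used here do not name the caller, its version, the threshold or the unit of the signal values that the authors deposited. The files hold no read counts, so the depth is unknown. Both dm6 lists of the replicates and the pooled list hold 30000 regions, and the IDR list 10936, of which 10918 lie on arms 2L, 2R, 3L, 3R, 4 and X. The dm3 lists were not used. Nothing in the labels ties the replicates to separate cultures beyond calling them biological replicates.

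A summit is the region's start plus the deposited offset, given 1-based; 5 IDR summits lay past the end of their region and were kept. Gene models were those of Ensembl 115 (BDGP6.54), and sequence came from the RefSeq FASTA of genome Release 6, which has dm6 coordinates. A replicate region was matched to an IDR region by overlap, taking the nearest summit. Counts were made in Python 3.11.15 with pandas 2.3.3, numpy 2.4.6, scipy 1.17.1, statsmodels 0.14.6 (Wilson intervals) and matplotlib 3.10.9, and the counting was checked on simulated data. No p-value was computed.

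Every gene of the set is accounted for, with full values where it has a promoter summit. In related lists, up to 3 genes with the strongest region are named, plus the members of the assembly list and the members without a summit of the Rag and Ragulator list. The set, lists and words were chosen with earlier results of these data known. The word trpml was matched to the symbol Trpml after results had been seen, and Vps41 was not matched, since lt is the fly gene. The pump subunit formerly VhaM8.9 carries the symbol ATP6AP2 and is counted in the assembly list. Alternatives changed the distance, list, starts, genes and sequence window.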

Additional observations from a re-analysis of the deposited data

How the results depend on the processing

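Of 111 alternative values, 87 stayed within 1.5 times the reported one. With the strongest 5459 IDR regions, which by construction lowers every share, the shares with a promoter summit were 27.3% of the vacuolar ATPase genes, 46.7% of the broad set, 11.1% of the other paralogs, 26.8% of the related lists and 20.2% of all genes. Among genes with no other coding start within 1000 bases they were 33.3% of the vacuolar ATPase genes, 15.4% of the other paralogs and 22.4% of all genes; the cause was not tested. Requiring the strongest regions of both replicates, an alternative chosen after seeing the data, gave 16.7% of the other paralogs. Leaving out either replicate gave 42.4 to 51.5% of the vacuolar ATPase genes, 66.7 to 86.7% of the broad set, 22.2% of the other paralogs and 34.9 to 35.1% of all genes, the lower broad-set share being that of replicate 2 alone. For the words, the window of 100 bases either side of the summit gave 5.56% for GGTCACAC against 6.16% of all genes with a promoter summit, 22.2% for TATAAA against 35.8%, and 5.56% for TCACGTGA against 0.142%. At the starts GGTCACAC and TATAAA lay above the share of all genes. At the summits they lay below that of genes with a promoter summit, a different set of genes. For GGTCACAC the share at the starts was 12.1% of the vacuolar ATPase genes and 12.1% of genes with a promoter summit. Its summit value was 1 of 18 genes. The cause of these differences was not tested. The window of 500 bases either side of the start, wider by construction, gave 78.8% for TATAAA against 74.5% of all genes, 30.3% for CACGTG against 12.9%, 6.06% for TCACGTGA against 0.602%, and 27.3% for TCATGTGA against 1.89%. No paired analysis was possible because there is only 1 group. Limits are the single group, the unknown depth, the unanalysed controls and the sets' small size, where 1 gene moves a share of the broad set by several points.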
